A study of Mus musculus with 28 samples.

Results

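The muscle actins and contractile genes described here are 10 genes of a table of 50600, taken by their symbols: Acta1, Acta2, Actc1 and Actg2, which encode the muscle actins, and Tagln, Cnn1, Myl9, Tpm1, Tpm2 and Des. The set was chosen by these symbols, with measured values of the same data in view: Acta1 had been seen among the largest falls between pre-p38i and DMSO on day 1 of induction. Every comparison that uses the DMSO or pre-p38i libraries of day 1 is therefore given as a description, with no test. RNA-seq was available for 28 libraries in 14 groups, with 2 libraries in each. MEFs, which are mouse embryonic fibroblasts, were sequenced untreated (MEF) and after SB203580, an inhibitor of the p38 MAP kinases (MEF_p38i). Cells were also taken on days 1, 3, 5 and 7 of OKS reprogramming, the induction of pluripotency with retroviral Oct4, Klf4 and Sox2, in 3 arms: control, named DMSO here after the study and ctr in the labels; p38i, with the inhibitor during induction; and pre-p38i, with the inhibitor on the MEFs before induction. The labels give the genotype WT for all groups, and the study's methods describe OG2 MEFs, primary fibroblasts from mouse embryos that carry an Oct4-GFP reporter, induced in iCD1, a defined medium. The cultures are mixed populations that were not sorted, and nothing in the labels says whether the 2 libraries of a group came from separate cultures, so the p-values measure the spread between these libraries, which may be technical.

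The values are whole numbers on a scale like TPM, which is already corrected for transcript length, so levels of different genes can be set side by side. Totals were between 991287 and 992537 in each library, between 12454 and 14170 genes were listed at 1 or more, and the number of reads behind a value is unknown. In bulk RNA a lower value can come from fewer cells that express a gene or from less RNA per cell, and these cannot be told apart here. The labelled cell type was checked with 8 fibroblast markers, whose summed value was between 7117 and 7319 in the MEF libraries, with 7 of the 8 above 0 and Lum at 0. Of 8 markers of smooth muscle cells and pericytes, Rgs5, Kcnj8 and Abcc9 were at 0 in the MEF libraries and the list summed to between 290 and 292. The others were above 0 there, with Pdgfrb at 121 in both, Mcam at 83 and 96, Cspg4 at 69 and 62, Myh11 at 14 and 11 and Notch3 at 3 and 2. All 9 skeletal myoblast markers in the table, which include Myod1 and Myog, were at 0 in the MEFs. Of 8 cardiac markers, Myh6, Nppa, Tnni3, Nkx2-5 and Gata4 were at 0 in the MEF libraries, and Nppb, a natriuretic peptide, was at 4 and 2, Tbx5 at 2 in both and Myl7 at 1 and 0. During induction Nppb was between 28 and 208, and the list summed to between 40 and 209 over the 24 libraries, most of it from Nppb.

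Actin filaments are built from 6 actins in mammals: beta actin (Actb) and gamma actin (Actg1) in nearly every cell, and the 4 muscle actins in striated and smooth muscle. Fibroblasts in culture that turn contractile, known as myofibroblasts, assemble alpha smooth muscle actin (Acta2) into stress fibres together with smooth muscle proteins. Many of these genes are switched on by serum response factor (Srf), which binds the CArG box in their promoters and works with myocardin (Myocd) or with the myocardin-related factors MRTF-A (Mkl1) and MRTF-B (Mkl2), proteins that enter the nucleus when free actin monomers are depleted. During reprogramming to pluripotency, fibroblasts lose their mesenchymal programme early and turn epithelial.

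The promoters of 3 muscle actins are shown because the genes share the letters that Srf is known to bind and yet were listed at very different levels in the MEFs. The windows are from RefSeq (GRCm38.p6), each of 300 bases, from 250 before to 50 after the gene start, all on the minus strand, at chr8:123894726-123895025 for Acta1, chr19:34255324-34255623 for Acta2 and chr2:114052826-114053125 for Actc1. Capitals mark every CArG box, which is CC and GG with 6 letters of A or T between them, and every CArG-like match, in which exactly 1 of the 6 letters is C or G.
Acta1: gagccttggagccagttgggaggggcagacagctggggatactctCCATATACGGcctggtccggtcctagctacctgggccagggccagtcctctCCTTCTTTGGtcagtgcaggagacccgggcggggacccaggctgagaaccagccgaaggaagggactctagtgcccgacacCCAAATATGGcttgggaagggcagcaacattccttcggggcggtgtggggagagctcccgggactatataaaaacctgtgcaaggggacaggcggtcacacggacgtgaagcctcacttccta
Acta2: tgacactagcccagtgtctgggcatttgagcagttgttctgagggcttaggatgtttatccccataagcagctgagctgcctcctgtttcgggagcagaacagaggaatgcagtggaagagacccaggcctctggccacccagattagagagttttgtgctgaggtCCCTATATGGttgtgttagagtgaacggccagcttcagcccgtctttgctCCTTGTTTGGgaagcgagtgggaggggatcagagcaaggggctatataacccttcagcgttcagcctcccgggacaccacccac
Actc1: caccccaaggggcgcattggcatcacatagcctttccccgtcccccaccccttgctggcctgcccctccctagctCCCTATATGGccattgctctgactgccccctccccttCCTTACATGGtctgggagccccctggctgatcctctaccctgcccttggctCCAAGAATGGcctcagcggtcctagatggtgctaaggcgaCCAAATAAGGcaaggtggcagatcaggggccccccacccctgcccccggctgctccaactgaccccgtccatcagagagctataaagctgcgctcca

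The CArG box of Acta1, CCAAATATGG, starts 73 bases before the RefSeq gene start, and CArG-like matches start at 205 and 154. All distances are to the RefSeq starts of the windows, which differ from the starts in the deposited coordinates of these genes. Acta2 has no full CArG box in this window and CArG-like matches at 84, CCCTATATGG, and at 34, CCTTGTTTGG. Actc1 has a CArG box at 47, CCAAATAAGG, and 3 CArG-like matches. The deposited coordinates of Actc1, chr2:114047282-114053548 on the minus strand, contain its whole window. Of the 8 members with a promoter entry (all but Tagln and Actg2), 3 held a CArG box, with Myl9 as the third, against 1.63% of 32851 promoters of the same length, and 4 held either form, against 9.98%. The MCAT element, CATTCC on either strand, the letters that TEAD factors bind, was in the windows of Acta1, Acta2 and Tpm1, against 14.7% of all promoters. No CArG box, CArG-like match or MCAT element was in the windows of Cnn1, Tpm2 or Des. These are matches of letters and not measured sites, and no binding was measured in this series.

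In untreated MEFs the smooth muscle members were among the abundant transcripts. Acta2 was listed at 6180 and 5867 in the 2 libraries, a level below that of Actg1 (mean 6684) and above that of Actb (mean 3348). Tagln, which encodes transgelin, an actin-binding protein of smooth muscle, was listed at 3238 and 3195. Tpm1, a tropomyosin gene whose products lie along the actin filament, was at 3189 and 3384. These 3 genes made up most of the summed level of the 10 members, which was 15094 ± 157 (SD, n = 2), or 1.52% of the library total. Tpm2, the other tropomyosin gene of the set, was at 942 and 972, and Myl9, the regulatory light chain of smooth muscle myosin, at 847 and 787. Actg2, the gamma actin of visceral smooth muscle, was at 410 and 383, Cnn1, which encodes calponin, at 205 and 200, and Acta1, the actin of skeletal muscle, at 176 and 180. Des, which encodes desmin, the intermediate filament protein of muscle, was low at 18 and 15. Actc1, the cardiac actin, was listed at 0 in 26 of the 28 libraries and at 1 in both MEF_p38i libraries. It did not reach the mean of 1 that the test required, so 9 of the 10 members were tested.

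The 4 muscle actins together made up 39.7% ± 0.603 (SD, n = 2) of the summed level of the 6 actins in MEFs, and within the muscle actins Acta2 made up 91.3% ± 0.0671. Across the 14 group means, which share the same libraries for every gene, Pearson's r between pairs of the 9 members other than Actc1 was between 0.813, for Actg2 and Tagln, and 0.985, for Acta2 and Myl9. Actg2 had the lowest values, between 0.813 and 0.894 with the other 8. These are descriptions over groups, with no test.

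**Figure D1:**
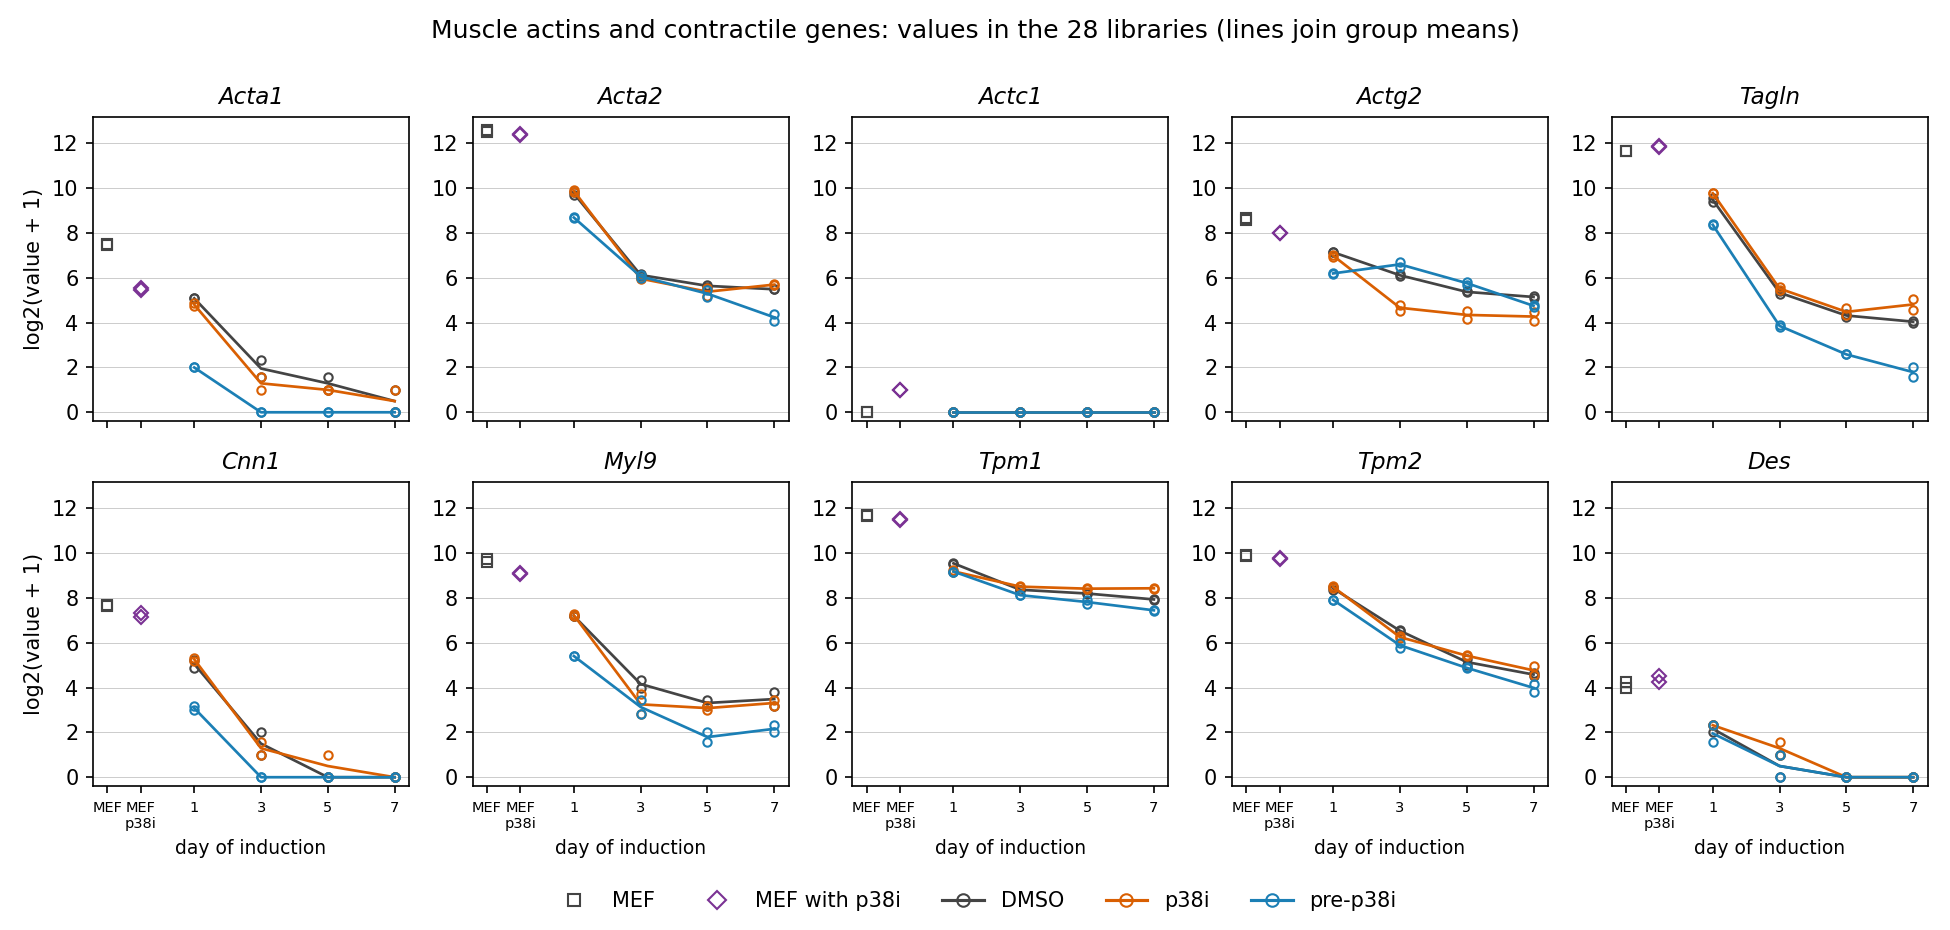
Values of the 10 genes in the 28 libraries, as log2(value + 1) on the y axis, by group and day of induction on the x axis. Points are libraries and lines join the means of the 2 libraries of each day in the DMSO, p38i and pre-p38i arms. Acta2 falls from 6180 and 5867 in MEFs to 44 in both DMSO libraries of day 7, and Actc1 lies at 0 or 1 throughout.

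The order of the 14 groups by mean was read for each member. For Tagln, 11 of the 13 neighbouring pairs of groups in the order were apart, meaning that the 2 libraries of the higher group both lay above those of the lower group. Its order ran from MEF_p38i and MEF through the day 1 groups p38i, DMSO and pre-p38i, then p38i and DMSO of day 3, p38i of days 7 and 5, DMSO of days 5 and 7, and last the pre-p38i groups of days 3, 5 and 7. The overlapping neighbours were p38i day 7 with p38i day 5, and p38i day 5 with DMSO day 5. For Actg2, 10 of 13 neighbouring pairs were apart and the order was different at its lower end: after MEF, MEF_p38i, DMSO day 1 and p38i day 1 came pre-p38i day 3, then pre-p38i day 1, DMSO day 3, pre-p38i day 5, DMSO day 5, DMSO day 7 and pre-p38i day 7, and the 3 lowest groups were p38i of days 3, 5 and 7, where neighbours from pre-p38i day 7 downwards overlapped. Tpm1 also had 10 of 13 pairs apart. Its order ran from MEF and MEF_p38i through DMSO, p38i and pre-p38i of day 1 to p38i of days 3, 7 and 5, then DMSO days 3 and 5, pre-p38i day 3, DMSO day 7 and pre-p38i of days 5 and 7, so that all p38i groups stood above the DMSO groups of days 3 to 7. Its overlapping neighbours were p38i day 1 with pre-p38i day 1, p38i day 7 with day 5, and DMSO day 7 with pre-p38i day 5. Tpm2 had 10 pairs apart as well and was ordered by day, with every group of day 1 above every group of day 3 and these above every group of day 5. Its lowest groups were pre-p38i day 5, p38i day 7, DMSO day 7 and pre-p38i day 7, and of the pairs among these only the last was apart. For Acta2, 8 of 13 pairs were apart, and the groups between 69 and 38.5 in mean value mostly overlapped with their neighbours. Myl9 had 6 pairs apart. Acta1 had 5 pairs apart and Cnn1 had 4, with both at or near 0 in most groups from day 3 onwards, and Actc1 and Des had 1 each.

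The comparison of MEF_p38i with MEF asks what the inhibitor did in fibroblasts that were not induced. Acta1 showed the largest difference of the members: it was listed at 43 and 46 in the MEF_p38i libraries against 176 and 180 in the MEF libraries, which is 25.0% of the untreated level. The 2 groups lay far apart, and Acta1 was lower by 1.98 ± 0.32 (SE) on the log2(value + 1) scale, with adjusted p = 0.000195 in limma. Actg2 was listed at 255 and 253 with the inhibitor against 410 and 383 without it, or 64.1% of the untreated level (log2 difference −0.64 ± 0.12, adjusted p = 0.000621). Tpm1 was slightly lower, at 2868 and 2992 against 3189 and 3384 (log2 difference −0.17 ± 0.05, adjusted p = 0.0273). So the skeletal actin and the visceral smooth muscle actin were both lower. Acta2, the most abundant member, did not pass the test, nor did Tagln: Acta2 was at 5355 and 5572 with the inhibitor (adjusted p = 0.43), and Tagln was at 3640 and 3762, above both MEF libraries (adjusted p = 0.329).

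Of 9 members tested, 3 passed, all of them lower, against 17.9% of all 13230 genes tested in either direction, 8.15% lower and 9.73% higher. Myl9 was at 531 and 556 against 847 and 787, below both untreated libraries, and did not pass (log2 difference −0.59, adjusted p = 0.12). Cnn1 was at 140 and 162 against 205 and 200 (adjusted p = 0.364), Tpm2 at 879 and 859 against 942 and 972 (adjusted p = 0.479), and Des at 22 and 18 against 18 and 15 (adjusted p = 0.695). The median log2 difference of the tested members was −0.17, against 0 for all genes tested. The muscle actins' share of the 6 actins was 34.8% ± 0.915 with the inhibitor against 39.7% ± 0.603 without it. In the same libraries the 8 fibroblast markers summed to between 4106 and 4110 against 7117 and 7319, with 7 of the 8 at a mean of 1 or more in MEFs and Lum at 0 there and at 1 and 0 with the inhibitor. Most of this fall came from Col1a1, at 2200 and 2221 against 4164 and 3867, and Col1a2, at 1428 and 1408 against 2492 and 2549. Col3a1, Thy1 and Fap were also lower, while Pdgfra, at 33 and 26 against 26 and 27, and Dcn, at 8 and 7 against 7 in both, were not. The 8 smooth muscle and pericyte markers summed to between 222 and 225 against 290 and 292, with 5 of the 8 at a mean of 1 or more in both groups. The part of these marker lists in the differences of the members was not tested. Of the smooth muscle and pericyte markers, Myh11 was at 2 in both MEF_p38i libraries against 14 and 11, and Pdgfrb at 64 and 66 against 121 in both. Mcam (83 in both against 83 and 96), Cspg4 (69 and 71 against 69 and 62) and Notch3 (4 and 3 against 3 and 2) overlapped between the groups. The Acta1 call was lost when a pseudocount of 0.1 replaced 1 (adjusted p = 0.142), and the Tpm1 call when only the 4 MEF libraries were fitted or when MEF replicate 2 or MEF_p38i replicate 1 was left out (adjusted p up to 0.221).

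**Figure D2:**
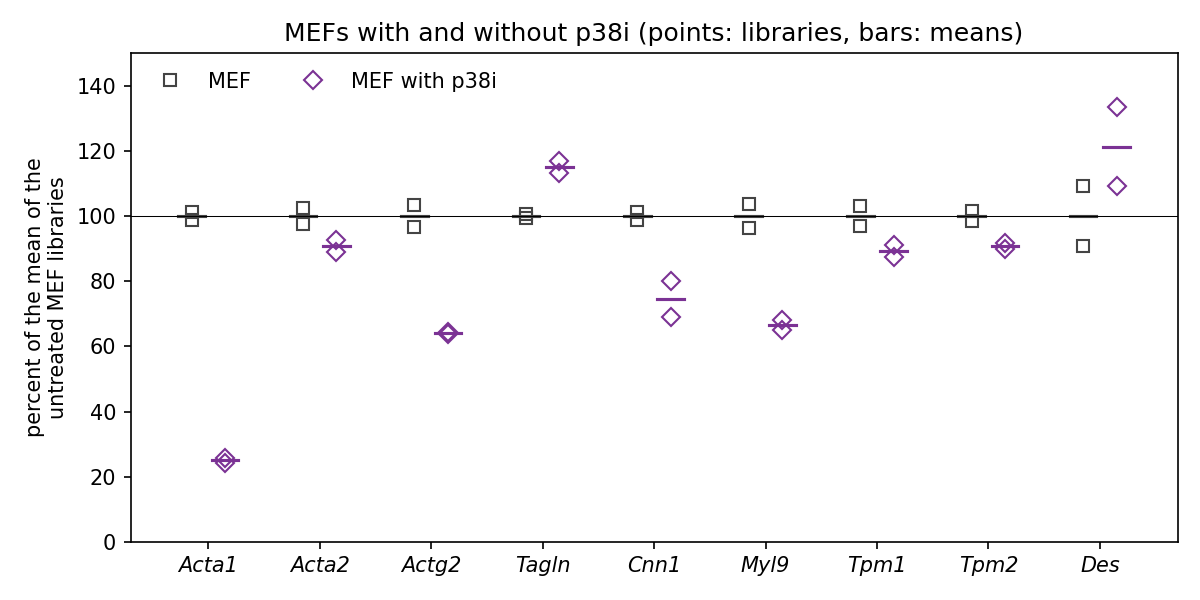
Values of 9 members in the untreated MEF libraries and the MEF_p38i libraries, in percent of the mean of the untreated libraries. Points are libraries and short bars are the means of 2. Acta1 lies at 24.2% and 25.8% in the MEF_p38i libraries and Tagln at 113% and 117%.

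Every member that was tested was lower in the control arm of induction than in MEFs. Medium, retroviral infection and time in culture also differed between these groups, and their parts cannot be told apart here. By day 3 of DMSO, Acta2 was listed at 66 and 72, which is 87.3-fold below its mean in MEFs, and Tagln at 38 and 41, which is 81.4-fold below. Myl9 was at 15 and 19, or 48.1-fold below. The tropomyosins and Actg2 fell less: Tpm2 was at 93 and 91, or 10.4-fold below MEFs, Tpm1 at 327 and 332, or 9.97-fold below, and Actg2 at 71 and 66, or 5.79-fold below. Acta1 was at 4 and 2, Cnn1 at 3 and 1 and Des at 0 and 1, values too low for a fold to be read. All 9 members tested were lower and passed the test, with adjusted p between 3.91e-21 (Tpm1) and 1.08e-08 (Des). Most of the mean of Des over all libraries, 3.54, came from the MEF and MEF_p38i libraries, through which it reached the filter on low values. Nothing is therefore read from its call. The background in this comparison was wide, since 68.2% of all genes tested passed it, with 27.6% lower and 40.6% higher. The median log2 difference was −5.51 for the members and 0.15 for all genes.

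From day 3 to day 7 of DMSO, 8 of 9 members fell further, against 43.1% of all genes called in either direction, 19.6% lower and 23.4% higher. Tpm2 fell most among the members still well above 0, from 93 and 91 to 24 and 22 (log2 difference −1.96, adjusted p = 1.03e-10). Tagln fell from 38 and 41 to 15 and 16 (−1.30, adjusted p = 1.52e-07), and Actg2 from 71 and 66 to 36 and 33 (−0.97, adjusted p = 1.63e-06). The change of Acta2 was smaller, from 66 and 72 to 44 in both libraries (−0.64, adjusted p = 8.52e-05). Tpm1 fell by 0.43 (adjusted p = 1.04e-06) and Myl9 by 0.67 (adjusted p = 0.036) on the log2(value + 1) scale. Cnn1 was listed at 0 in both libraries of day 7 (adjusted p = 0.000336) and Acta1 at 0 and 1 (adjusted p = 0.00108), while Des, at 0 in both, did not pass (adjusted p = 0.25). At day 7 the mean of Tagln was 207.5-fold below that in MEFs, that of Acta2 136.9-fold, and that of Actg2 11.5-fold. Over these same days the 8 fibroblast markers went from between 3441 and 3746 on day 3 to between 1393 and 1470 on day 7, and the 5 epithelial markers from between 63 and 66 to between 434 and 453; their part in the falls was not tested.

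On day 1 the levels were already far from those of MEFs, and these values are given as a description because they include the libraries from which the set was proposed. In the DMSO libraries Acta2 was at 841 and 901, Tagln at 675 and 755 and Acta1 at 33 in both. The fit called 9 of 9 members lower in DMSO than in MEFs on this day, beside 55.5% of all genes in either direction and 18.9% lower, and nothing is read from that count. The pre-p38i libraries were lower, with Acta2 at 405 and 421, Tagln at 334 and 325 and Acta1 at 3 in both. Myl9 was at 148 and 144 in DMSO and 41 and 42 in pre-p38i, Cnn1 at 37 and 28 and 8 and 7, Actg2 at 141 and 140 and 72 and 73, and Tpm2 at 325 and 364 and 241 and 240. In means, pre-p38i stood at 23.1% of DMSO for Cnn1, 28.4% for Myl9, 46.1% for Tagln, 47.4% for Acta2, 51.6% for Actg2, 69.8% for Tpm2 and 77.6% for Tpm1. The fit called 8 of 9 members lower beside 11.6% of all genes in either direction and 6.24% lower, a count that is likewise not read. The p38i libraries of day 1 lay near the DMSO libraries or above them for Acta2, at 922 and 964, and for Tagln, at 872 and 883, and below them for Tpm1, at 600 and 567 against 743 and 752.

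The comparison of pre-p38i with DMSO from day 3 onwards asks whether treatment of the MEFs before induction left a difference later. Tagln was the member with the clearest difference. It was listed at 14 and 13 in pre-p38i against 38 and 41 in DMSO on day 3, at 5 in both libraries against 20 and 18 on day 5, and at 3 and 2 against 15 and 16 on day 7. The groups did not overlap on any of these days, and the log2 differences were −1.48 ± 0.13, −1.74 ± 0.13 and −2.25 ± 0.13 (adjusted p = 1.8e-07, 1.08e-08 and 1.62e-10). These calls of Tagln held in each alternative setting and without each library. Tpm1 was also lower on each day, at 277 and 280 against 327 and 332, at 239 and 212 against 286 and 301, and at 176 and 172 against 238 and 250 (log2 differences −0.24, −0.38 and −0.49, each ± 0.05, adjusted p = 0.00187, 1.23e-05 and 4.41e-07).

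Acta2 differed in its timing. On day 3 it was at 62 and 70 in pre-p38i against 66 and 72 in DMSO, where the groups overlapped (log2 difference −0.06, adjusted p = 0.73). On day 5 it was at 43 and 34 against 50 and 48 (−0.35 ± 0.11, adjusted p = 0.0218), and on day 7 at 20 and 16 against 44 in both libraries (−1.25 ± 0.11, adjusted p = 3.68e-08). Myl9 was lower on all 3 days, at 6 and 10 against 15 and 19, at 3 and 2 against 10 and 8, and at 4 and 3 against 8 and 13 (log2 differences −1.03, −1.52 and −1.33, each ± 0.25, adjusted p = 0.00611, 0.000139 and 0.00045). Tpm2 was lower on day 3, at 54 and 63 against 93 and 91 (−0.65 ± 0.12, adjusted p = 0.000534), did not pass on day 5 at 29 and 28 against 31 and 38 (adjusted p = 0.111), and was lower on day 7 at 17 and 13 against 24 and 22 (−0.60 ± 0.12, adjusted p = 0.000645). Acta1 was listed at 0 in all 6 pre-p38i libraries of days 3, 5 and 7, against 4 and 2, 2 and 1, and 0 and 1 in DMSO, and passed on days 3 and 5 (adjusted p = 0.00023 and 0.00525). Cnn1 was also at 0 in these 6 libraries and passed on day 3, against 3 and 1 in DMSO (adjusted p = 0.00104). These values of a few units were rounded down to whole numbers before deposit, so a value listed at 0 can stand for any level under 1. Groups listed at 0 in both libraries also lower the spread that the fit pools over groups. The p-values of Acta1 and Cnn1 may therefore be too small.

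Actg2 went the other way on days 3 and 5. It was listed at 90 and 103 in pre-p38i against 71 and 66 in DMSO on day 3 (log2 difference 0.49 ± 0.12, adjusted p = 0.00566) and at 51 and 56 against 41 and 40 on day 5 (0.39 ± 0.12, adjusted p = 0.018), so that both pre-p38i libraries lay above both DMSO libraries. On day 7 it was at 27 and 25 against 36 and 33, lower in both pre-p38i libraries (−0.39 ± 0.12, adjusted p = 0.0151). In the pre-p38i arm the value of Actg2 was thus higher on day 3 than on day 1, where it was 72 and 73, while each other member above 5 on day 1 was lower on day 3. This contrast of days within the arm uses day 1 libraries and was not tested.

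Counted over the members, pre-p38i differed from DMSO in 7 of 9 on day 3 (6 lower, 1 higher), against 20.6% of all genes called in either direction, 6.87% lower and 13.8% higher. On day 5 it differed in 6 of 9 (5 lower, 1 higher), against 25.6% called, 11.3% lower and 14.3% higher, and on day 7 in 6 of 9, all lower, against 29.9% called, 14.5% lower and 15.4% higher. The median log2 differences of the members were −0.65, −0.35 and −0.50, against 0.07, 0.04 and 0.05 over all genes tested. Marker lists of other cell types moved in the same libraries. The 8 fibroblast markers, all at a mean of 1 or more, summed to between 2455 and 2529 in pre-p38i against 3441 and 3746 in DMSO on day 3, to between 1380 and 1509 against 2155 and 2462 on day 5, and to between 777 and 831 against 1393 and 1470 on day 7. The sum of the 5 epithelial markers went the other way, with 126 and 127 against 63 and 66, 315 and 332 against 131 and 139, and 843 and 881 against 434 and 453. Cdh1, Epcam, Krt8 and Cldn3 were higher in pre-p38i on each day. Krt18 was lower on day 3, at 9 in both libraries against 14 and 13. It overlapped on day 5, at 14 and 12 against 12 and 11, and was higher on day 7. The 8 smooth muscle and pericyte markers, with Myh11, Kcnj8 and Abcc9 at 0, summed to between 38 and 40 against 52 and 62 on day 3. Their sums were between 31 and 34 against 42 and 45 on day 5 and between 47 and 49 against 46 and 49 on day 7. Within the day 7 sum, Mcam was higher in pre-p38i, at 34 in both libraries against 22 and 25. Cspg4 (3 and 2 against 6 and 7), Pdgfrb (3 in both against 6 and 7) and Rgs5 (3 and 2 against 5 and 4) were lower, and Notch3 was at 6 in both against 7 and 6. The part of these cell types in the differences of the members was not tested. When only the 4 libraries of each comparison were fitted, 2, 1 and 3 members were called. The Actg2 and Myl9 calls of day 3, the Acta2 and Actg2 calls of day 5 and the Actg2 call of day 7 were each lost in that fit and without at least 1 of the libraries compared, with adjusted p of up to 0.314 for Acta2 on day 5 and 0.136 for Actg2 on day 5.

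The p38i arm, in which the inhibitor was present during induction, shared the DMSO libraries with the comparison above and was read in the same way. Actg2 was the member with the largest difference: it was listed at 27 and 22 against 71 and 66 in DMSO on day 3, at 22 and 17 against 41 and 40 on day 5, and at 21 and 16 against 36 and 33 on day 7. Both p38i libraries lay below both DMSO libraries on each day, with log2 differences of −1.45, −1.03 and −0.88, each ± 0.12 (adjusted p = 2.82e-08, 2.13e-06 and 1e-05). Myl9 was lower on day 3, at 6 and 12 against 15 and 19 (−0.91 ± 0.25, adjusted p = 0.0126), a call that was lost without p38i day 3 replicate 1 or DMSO day 3 replicate 2 (adjusted p up to 0.293). It overlapped between the groups on day 5, at 7 and 8 against 10 and 8, and on day 7, at 8 and 10 against 8 and 13.

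Tagln and Tpm1 were higher in p38i by day 7. Tagln was at 43 and 47 against 38 and 41 on day 3 (adjusted p = 0.352) and at 23 and 32 against 15 and 16 on day 7, which is 1.77-fold higher in means (log2 difference 0.77 ± 0.13, adjusted p = 0.000127). Tpm1 was at 358 and 368 against 327 and 332 on day 3 (adjusted p = 0.0549), at 333 and 349 against 286 and 301 on day 5 (0.22 ± 0.05, adjusted p = 0.00339), and at 339 and 351 against 238 and 250 on day 7, or 1.41-fold higher (0.50 ± 0.05, adjusted p = 3.42e-07). Tpm1 thus stayed between 333 and 368 in the 6 p38i libraries of days 3 to 7, over the days on which it fell from 327 and 332 to 238 and 250 in DMSO. Acta2 was at 62 and 61, 46 and 36, and 52 and 50 in p38i on the same 3 days, and did not pass on any of them (log2 difference 0.21 on day 7, adjusted p = 0.148).

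On day 3, 2 of 9 members were called, both lower, against 21.4% of all genes, 16.2% lower and 5.22% higher. On day 5, 2 of 9 were called, 1 in each direction, against 26.6% of all genes, 7.87% higher and 18.7% lower. On day 7, 3 of 9 were called, 2 higher and 1 lower, against 34.1% of all genes, 16.5% higher and 17.6% lower. These shares of members were close to those of all genes. The medians of the members were −0.21, 0 and 0, against −0.08, −0.08 and 0 over all genes tested. The 8 fibroblast markers summed to between 1842 and 1909 in p38i against 3441 and 3746 in DMSO on day 3 and to between 1534 and 1585 against 1393 and 1470 on day 7, and the 5 epithelial markers to between 22 and 26 against 63 and 66 and to between 197 and 214 against 434 and 453. The higher fibroblast sum of day 7 came mostly from Dcn, at 225 and 231 against 104 and 102. Col1a2, Thy1 and Lum were also higher. Col1a1 (270 and 277 against 290 and 319) and Col3a1 (270 and 281 against 292 and 313) were lower, and Pdgfra and Fap were no higher. The 8 smooth muscle and pericyte markers summed to between 28 and 29 against 52 and 62 on day 3. Rgs5, at 4 in both against 25 and 22, Cspg4, Pdgfrb and Notch3 were lower there, and Mcam overlapped. The sums were between 29 and 33 against 42 and 45 on day 5, and between 34 and 36 against 46 and 49 on day 7. On day 7 Mcam (15 and 13 against 22 and 25) and Rgs5 (2 in both against 5 and 4) were lower, and the others above 0 overlapped. The part of these marker lists in the differences was not tested. Tpm2 did not pass on any of these days, at 78 and 73 against 93 and 91 on day 3, 43 and 41 against 31 and 38 on day 5 and 30 and 23 against 24 and 22 on day 7 (adjusted p = 0.0921, 0.0811 and 0.239). Acta1, Cnn1 and Des were between 0 and 4 in both arms from day 3 onwards and did not pass. The Tagln call of day 7 was lost only when the 4 libraries of the comparison were fitted alone (adjusted p = 0.103).

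**Figure D3:**
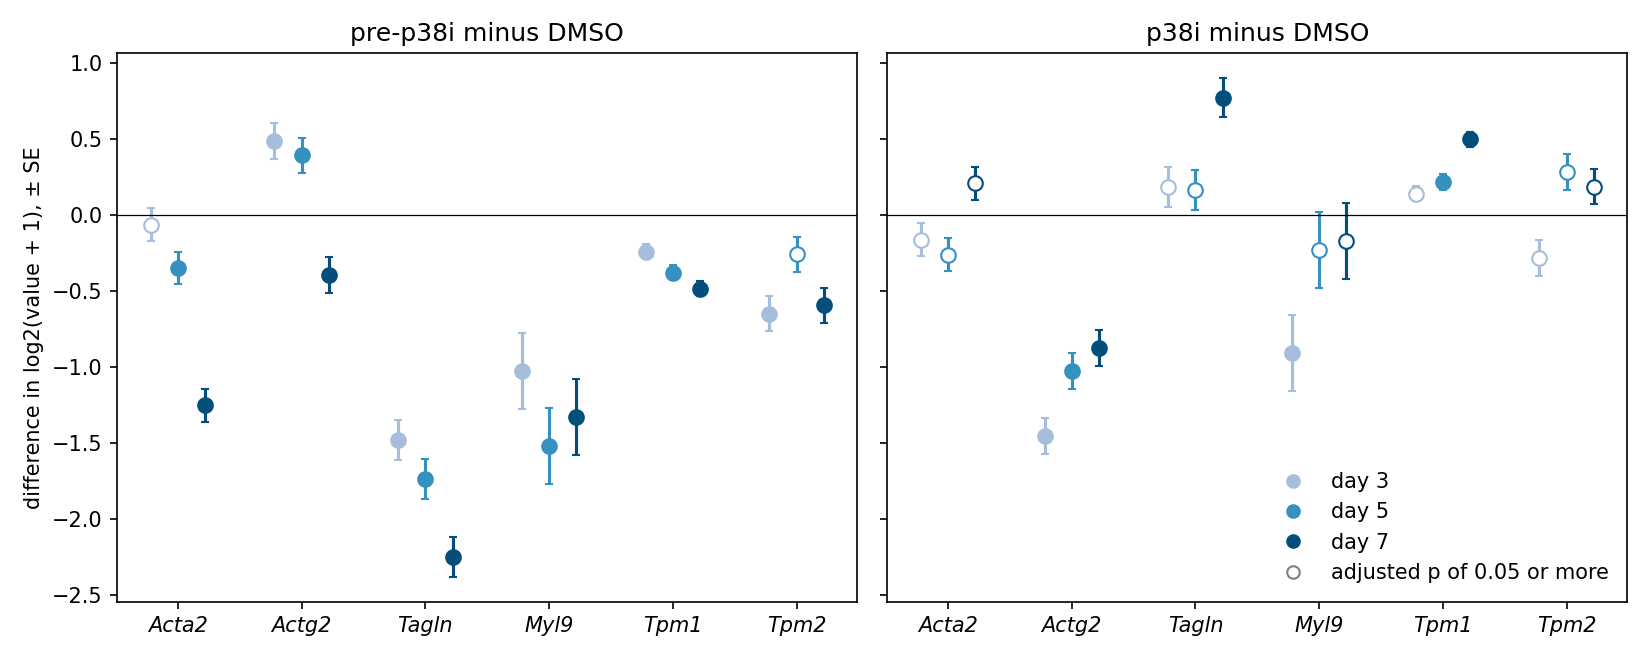
Differences from DMSO in log2(value + 1) for 6 members on days 3, 5 and 7, for pre-p38i in the left panel and p38i in the right panel. Bars are the standard errors of the limma fit, and open points have an adjusted p of 0.05 or more. On day 3 Actg2 lies at 0.49 in pre-p38i and at −1.45 in p38i, while Tagln lies at −1.48 and 0.18.

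The difference of each arm from DMSO was also compared between day 3 and day 7. In p38i it became higher for Tagln, Tpm1 and Actg2, 3 of 9 members, against 19.2% of all genes called and 12.8% higher. Of these, the call of Actg2 held in 8 of 14 alternatives and that of Tagln in 4 of 14, and without DMSO day 3 replicate 1 or DMSO day 7 replicate 2 only Tpm1 was called (adjusted p between 0.0518 and 0.0756 for Actg2 and Tagln). In pre-p38i it became lower for Acta2, Actg2, Tagln and Tpm1 and higher for Cnn1, 5 of 9 members, against 8.17% of all genes called and 6.66% lower. For Acta2 the pre-p38i difference went from −0.06 on day 3 to −1.25 on day 7 (change −1.19 ± 0.15, adjusted p = 3.51e-05).

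The 2 arms with the inhibitor were also compared directly. On day 7 Tagln was at 23 and 32 in p38i against 3 and 2 in pre-p38i (log2 difference 3.02, adjusted p = 4.36e-13), Acta2 at 52 and 50 against 20 and 16 (1.46, adjusted p = 9.42e-10), Tpm1 at 339 and 351 against 176 and 172 (0.98, adjusted p = 4.6e-12), Myl9 at 8 and 10 against 4 and 3 (1.15, adjusted p = 0.000647), and Tpm2 at 30 and 23 against 17 and 13 (0.78, adjusted p = 1.21e-05). Each of these lay higher in both p38i libraries than in both pre-p38i libraries. Actg2 was the exception and was lower in p38i on all 3 days, by 1.94 on day 3, by 1.42 on day 5 and by 0.48 on day 7 on the log2(value + 1) scale (adjusted p = 1.75e-10, 8.36e-09 and 0.00178). The counts were 5 higher and 1 lower of 9 on each day, with 42.2%, 47.5% and 54.3% of all genes called on days 3, 5 and 7 of which those higher in p38i were 10.7%, 16.3% and 24.8% of all genes and those lower 31.4%, 31.1% and 29.5%. The medians of the members were 0.38, 0.54 and 0.78, against −0.16, −0.12 and −0.05 for all genes tested. On day 7 the 8 fibroblast markers, all at a mean of 1 or more in both arms, summed to 1534 and 1585 in the p38i libraries against 777 and 831 after pretreatment, and the 5 epithelial markers to 197 and 214 against 843 and 881; their part in the differences of the members was not tested. The sum of the smooth muscle and pericyte markers went the other way, with 34 and 36 in p38i against 47 and 49, and with Myh11, Kcnj8 and Abcc9 at 0. Its direction came from Mcam, at 15 and 13 in p38i against 34 in both pre-p38i libraries. Cspg4 (6 in both against 3 and 2), Pdgfrb (6 in both against 3 in both) and Notch3 (7 in both against 6 in both) were higher in p38i. Rgs5 was at 2 in both p38i libraries against 3 and 2.

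The make-up of the actin transcripts changed with these values. The 4 muscle actins fell from 39.7% of the 6 actins in MEFs to 23.1% ± 1.11, 3.25% ± 0.122, 1.95% ± 0.145 and 1.71% ± 0.00396 on the 4 days of DMSO in turn. In pre-p38i the 4 shares were 11.3%, 3.26%, 1.89% and 1.03%, and in p38i they were 22.9%, 2.2%, 1.32% and 1.53%. Within the muscle actins, the share of Actg2 went from 6.01% ± 0.0730 in MEFs to 48.7% ± 2.27 on day 3 of DMSO. On that day it was 59.4% ± 0.231 in pre-p38i and 27.9% ± 2.46 in p38i, while the day 7 shares were 59.2% ± 2.50 in pre-p38i, 43.7% ± 1.90 in DMSO and 26.3% ± 2.92 in p38i. The 3 arms did not overlap in this share on days 3 and 7. With 2 libraries against 2, an exact two-sided permutation test cannot give a p below 0.333, so the shares are given with no test.

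**Figure D4:**
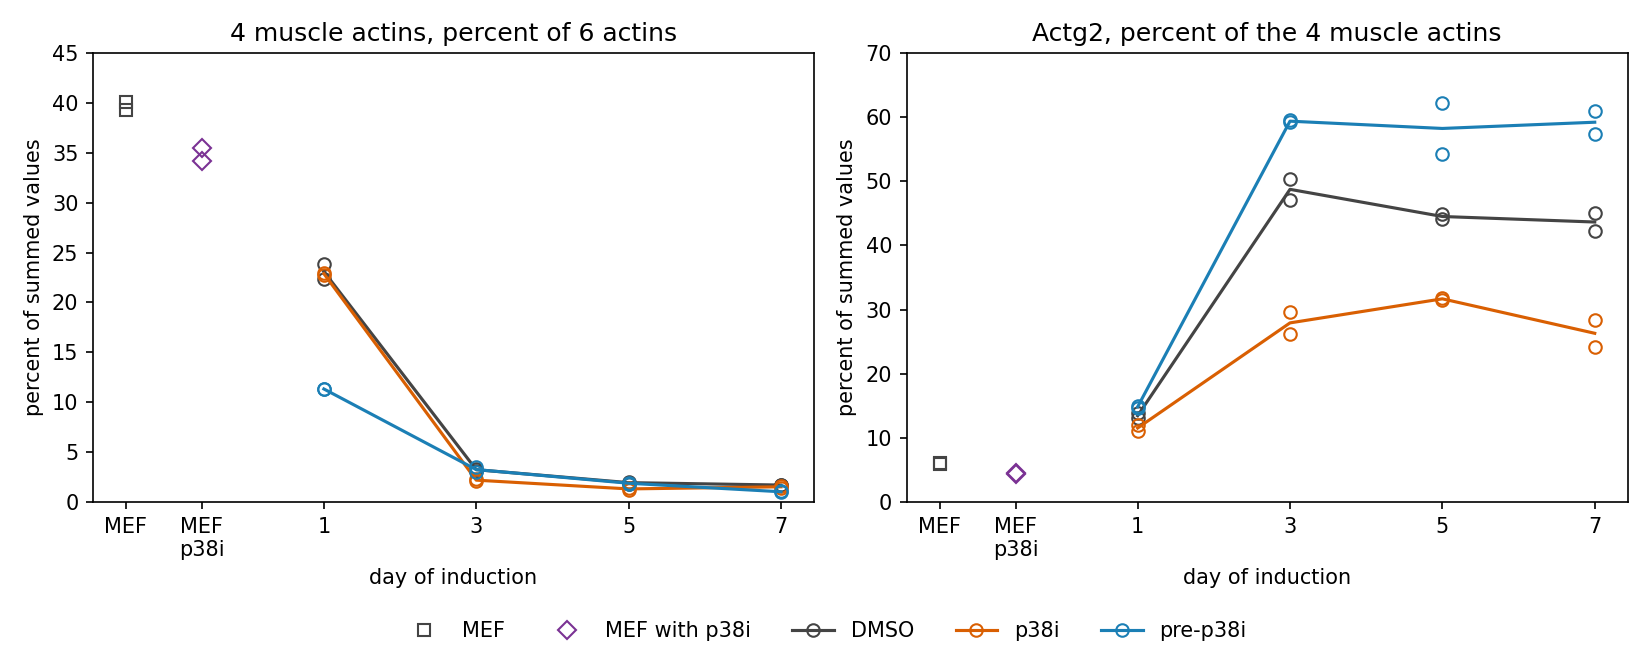
Left panel: summed value of the 4 muscle actins in percent of the 6 actins. Right panel: Actg2 in percent of the 4 muscle actins. Points are libraries, and lines join the means of the 2 libraries of each day. In the right panel on day 3 the means are 59.4% for pre-p38i, 48.7% for DMSO and 27.9% for p38i.

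The non-muscle actins followed other courses. Actb had a mean of 3348 in MEFs and 1024 on day 1 of DMSO, then 1732, 2184 and 2235 on days 3, 5 and 7, a rise from day 3 to day 7 (log2 difference 0.37, adjusted p = 1.85e-05) over the days on which 8 members fell. In p38i Actb was lower than in DMSO on day 3 by 0.42 (adjusted p = 1.11e-05) and on day 7 by 0.29 (adjusted p = 0.000315). In pre-p38i it was higher on day 3 by 0.36 (adjusted p = 1e-04), and on day 7 the difference was −0.03 (adjusted p = 0.716). Actg1 had a mean of 6684 in MEFs and stayed between 2315 and 2460 in the DMSO groups. On day 7 it was higher in p38i by 0.21 (adjusted p = 0.000485) and lower in pre-p38i by 0.20 (adjusted p = 0.000832).

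Among the regulators, Srf itself was listed at 73 and 71 in MEFs and at 21 and 18 on day 3 of DMSO, a fall of the same direction as the members (log2 difference −1.84, adjusted p = 4.57e-12). It lay between 16 and 24 in all 18 libraries of days 3, 5 and 7, and neither pre-p38i nor p38i passed against DMSO on any of these days (adjusted p between 0.103 and 0.998). Between the arms with the inhibitor, Srf was lower in p38i than in pre-p38i on day 5, at 18 and 19 against 24 in both (−0.36, adjusted p = 0.00797), while the difference was −0.25 on day 3 (adjusted p = 0.0593) and 0.12 on day 7 (adjusted p = 0.336). In MEF_p38i it was at 60 and 63 (adjusted p = 0.157). Myocd was at 0 in 26 libraries and at 1 in DMSO day 3 replicate 2 and pre-p38i day 5 replicate 1. Mkl1 fell from 39 and 43 in MEFs to 20 and 19 on day 3 of DMSO (−1.03, adjusted p = 2.52e-09), and it was higher in p38i than in DMSO on day 5, at 20 and 19 against 14 and 15 (0.40, adjusted p = 0.00196), and on day 7, at 17 and 18 against 12 and 13 (0.46, adjusted p = 0.000469). In pre-p38i Mkl1 did not pass against DMSO on days 3, 5 and 7. Mkl2 was low throughout, at 9 in both MEF libraries and between 6 and 10 during induction, and was higher in p38i on day 7 (0.49, adjusted p = 0.0251). The levels of these transcripts say nothing of where the proteins were in the cell.

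The other contractile genes of smooth muscle, 18 of 20 listed genes tested, changed as follows. The list is not limited to genes particular to smooth muscle and holds genes of non-muscle cells such as Cnn2. The counts of this list and of those after it stand beside the shares of all genes called in the same comparison, and nothing particular to a list is read from them. From MEF to day 3 of DMSO, 16 fell and 1 rose, against 27.6% of all genes lower and 40.6% higher. The largest fall was that of Lmod1, which encodes leiomodin, listed at 38 and 37 in MEFs and at 0 in both libraries, and the rise was that of Synpo2, an actin-bundling protein (2.00, adjusted p = 2.02e-09). Lmod1 and Myh11 reached the filter on low values through the MEF and MEF_p38i libraries. Nothing is therefore read from their calls, which include that of Myh11 among the lower genes of MEF_p38i. In MEF_p38i, 6 were lower and 1 was higher than in MEF, against 8.15% of all genes lower and 9.73% higher: Cald1, which encodes caldesmon, was at 939 and 934 against 1206 and 1275 (−0.40, adjusted p = 2.65e-06), and the higher gene was Myl6 (0.14, adjusted p = 0.0413), a call lost under quantile normalization (adjusted p = 0.241). In pre-p38i against DMSO the list had 3 lower and 1 higher on day 3 (16.7% and 5.56% of the 18, against 6.87% and 13.8% of all genes), 7 and 1 on day 5 (38.9% and 5.56%, against 11.3% and 14.3%), and 11 lower on day 7 (61.1%, against 14.5%). On day 7 the largest fall was that of Cnn2, a calponin of non-muscle cells, at 32 and 31 against 57 and 64 (−0.92, adjusted p = 2e-10), and the median of the list was −0.33 against 0.05 for all genes. In p38i the list went from 4 lower and 1 higher on day 3 (22.2% and 5.56%, against 16.2% and 5.22% of all genes, so close to the background) to 3 higher and 1 lower on day 5 (16.7% and 5.56%, against 7.87% and 18.7%) and 9 higher and 1 lower on day 7 (50% and 5.56%, against 16.5% and 17.6%). The largest rise on day 7 was that of Nexn (adjusted p = 0.0119), which was at 0 in both DMSO libraries, and the gene that was lower was Csrp1 (−0.24, adjusted p = 0.00282). Nexn lay near the floor of the rounded values in p38i as well, so the size of its rise is not read. Between p38i and pre-p38i on day 7, 12 of the 18 were higher in p38i, against 24.8% of all genes.

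The list of immediate and adhesion targets of Srf, 16 genes, all tested, was counted in the same way. In pre-p38i it had 4 lower on day 3 (25% of the 16, against 6.87% of all genes), 9 lower and 1 higher on day 5 (56.2% and 6.25%, against 11.3% and 14.3%), and 11 lower and 1 higher on day 7 (68.8% and 6.25%, against 14.5% and 15.4%), with a median of −0.66 on day 7. Ctgf, a secreted matrix-associated protein that is also a target of YAP, was the largest fall on each of these days, at 74 and 75 in pre-p38i against 235 and 268 in DMSO on day 7 (−1.74, adjusted p = 3.22e-13), and Filip1l was the rise on day 7 (0.76, adjusted p = 0.00011). In p38i the list had 4 lower and 1 higher on day 3 (25% and 6.25%, against 16.2% and 5.22%). It had 3 lower on day 5 (18.8%, at the background of 18.7%) and 5 higher (31.2%, against 7.87%), and 4 lower and 10 higher on day 7 (25% and 62.5%, against 17.6% and 16.5%). On day 7 Ctgf was at 451 and 466 in p38i, the largest rise was that of Filip1l (1.07, adjusted p = 2.04e-06), and the largest fall was that of Fosl1 (−0.69, adjusted p = 2.33e-05). In MEF_p38i the list was divided, with 2 higher and 4 lower (12.5% and 25%, against 9.73% and 8.15%): Egr1, an immediate early transcription factor, was at 169 and 178 against 76 and 68 (1.26, adjusted p = 0.00301), and Itga5, the fibronectin receptor subunit, at 253 in both libraries against 441 and 432 (−0.78, adjusted p = 5.61e-07). From MEF to day 3 of DMSO, 14 were lower and 1 was higher (87.5% and 6.25%, against 27.6% and 40.6%). The higher gene, Fos, was no longer called under quantile normalization (adjusted p = 0.143).

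Of the list of Srf, its cofactors and other muscle gene regulators, 15 of 16 genes were tested. From MEF to day 3 of DMSO, 8 fell and 4 rose (53.3% and 26.7%, against 27.6% and 40.6% of all genes), with Fhl1, a LIM domain protein, as the largest fall (−3.75, adjusted p = 1.14e-15) and Mef2a, a MADS-box factor of muscle genes, as the largest rise (1.82, adjusted p = 1.03e-15). In MEF_p38i 3 were lower (20%, against 8.15%), with Fhl2, a LIM protein that binds Srf cofactors, at 140 and 127 against 191 and 202 (−0.56, adjusted p = 0.0109). In pre-p38i on day 7, 3 were lower and 1 higher (20% and 6.67%, against 14.5% and 15.4%), with Fhl2 at 5 and 4 against 13 and 14 (−1.40, adjusted p = 4.18e-07) and Tead2 as the rise (0.28, adjusted p = 0.00372). In p38i on day 7, 6 were higher and 2 lower (40% and 13.3%, against 16.5% and 17.6%), with Fhl1 as the largest rise (0.73, adjusted p = 0.000167) and Tead4 as the largest fall (−0.41, adjusted p = 0.00729). Of the non-muscle actins, myosins and tropomyosins, 8 of 9 genes were tested, and on day 7 pre-p38i had 4 lower and 1 higher (50% and 12.5%) while p38i had 4 higher and 2 lower (50% and 25%), beside the same shares of all genes. Their largest fall in pre-p38i was that of Actn4, a non-muscle alpha-actinin (−0.38, adjusted p = 5.96e-06), and their largest rise in p38i was that of Myh10, a non-muscle myosin heavy chain (0.54, adjusted p = 8.64e-05).

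The genes whose group means over the 14 groups were most like those of the members were read from 10660 genes, as a description. For Acta1 they were Fstl3 (Pearson's r = 0.977), Col5a2 (0.973), Cdr2, Sh3rf1 and Dysf (0.968 each). For Acta2 they included Ankrd27 and Ckap4 (0.985 each), and Myl12a and Tspan4 (0.982 each). For Tagln they included Lox (0.992), Capzb (0.983), and Prkg2 and Zyx (0.982 each). All of these rest mostly on the difference between the 2 MEF groups and the 12 groups of induction, since the points share their libraries.

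How the reads were counted bears on a few of these values. Of windows of 75 bases in the transcripts of Tagln, 53.3% were also found in transcripts of genes that overlap it on the other strand, Gm48529 with 51.6% and Pcsk7 with 1.71%. Gm48529 was between 9 and 13 in the 4 MEF libraries and between 0 and 2 during induction, and Pcsk7 was between 13 and 21 in all libraries. The values of Tagln in pre-p38i from day 3 onwards, and in DMSO on days 5 and 7, are no higher than 20. Gm20388 overlaps Acta1 on the other strand, with values between 0 and 35 that differed widely between libraries of a group, and 0.394% of the Acta1 windows were shared with Actb and Gm47692. Whether strand was used in the counting is not given in the sources used here, so reads of these pairs cannot be told apart. No window of Acta2, Actc1, Actg2, Cnn1, Myl9, Tpm1 or Tpm2 was shared. The deposited table places Acta1 at chr8:123891769-123894751 on the minus strand, Acta2 at chr19:34241090-34255336 on the minus strand, Actg2 at chr6:83512905-83536265 on the minus strand, Tagln at chr9:45929619-45936058 on the minus strand and Tpm1 at chr9:67022590-67049406 on the minus strand, and 9 of the 10 members, all but Acta2, have the same coordinates in GENCODE M21 on GRCm38.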

How the data were processed

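RNA-seq values of 50600 genes in 28 libraries were used as deposited. The labels' processing notes name bcl2fastq, Bowtie2 2.2.5, RSEM 1.3.0 and the builds mm10 and hg38, without their roles. Per the file headers and the values themselves, the authors deposited whole numbers on a scale like TPM, rounded down (unit score, with no unit named); these are not counts, so read depth is unknown, no counting interval can be given and no count test was used.

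Groups were taken from the labels. Values were tested as log2(value + 1) by the functions lmFit and eBayes (trend on) of limma 3.58.1, run in R 4.3.3, with all 14 groups in 1 model and no replicate block, over 13230 genes with a mean of at least 1. A gene was called at a Benjamini-Hochberg adjusted p under 0.05 over all genes tested. Differences are on the log2(value + 1) scale, which understates those of low genes. The fit was tested on simulated data. The members and all gene lists were chosen with earlier results of these data known. All members are named. Of each list, the text names the called genes with the largest rise and fall among those with a mean of at least 5, in the comparisons it describes, and Srf, Myocd, Mkl1, Mkl2, Actb and Actg1 always. Folds are given where both means are at least 5. The alternatives were fits of only the groups compared, a replicate block, quantile normalization, a minimum mean of 5 or no filter, a pseudocount of 0.1, and leaving out each library. Figures were drawn with matplotlib 3.10.9 in Python 3.11.15. Promoters came from RefSeq (GRCm38.p6). Protein sequences were not used here, and 1 gene that the rule on likeness of pattern names is not reported here.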

Additional observations from a re-analysis of the deposited data

Results flagged for a closer look

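The difference of an arm from DMSO was set against itself on days 3 and 7, as a difference of differences on the log2(value + 1) scale, and was called with limma for the members below. For p38i, the difference was higher on day 7 than on day 3 for Tpm1 by 0.36 ± 0.07 (adjusted p = 0.0016), for Actg2 by 0.58 ± 0.17 (adjusted p = 0.0196) and for Tagln by 0.59 ± 0.18 (adjusted p = 0.0311). That of Actg2 was below 0 on both days and came closer to 0, while those of Tpm1 and Tagln were above 0 on both days. The median of these changes over all genes was 0.10.

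For pre-p38i, the difference was lower on day 7 than on day 3 for Acta2, which changed by −1.19 ± 0.15 (adjusted p = 3.51e-05), for Actg2 by −0.88 ± 0.17 (adjusted p = 0.00162), for Tagln by −0.77 ± 0.18 (adjusted p = 0.0116) and for Tpm1 by −0.24 ± 0.07 (adjusted p = 0.0401). Actg2 changed sides, from above DMSO on day 3 to below it on day 7. Cnn1 changed by 1.5 (adjusted p = 0.0277), which rests on values of 3 and 1 in DMSO on day 3 and on 0 in the other libraries compared. The calls of Acta2 and Actg2 for pre-p38i and of Tpm1 for p38i held in each of 14 alternatives, while those of Tagln for p38i and of Tpm1 and Cnn1 for pre-p38i were each lost in 10 of 14. The call of Actg2 for p38i held in 8 of 14 and that of Tagln for pre-p38i in 10 of 14. The call of Actg2 for p38i was lost without DMSO day 3 replicate 1 (adjusted p = 0.0756), DMSO day 7 replicate 2 (0.0725), p38i day 3 replicate 2 (0.101) or p38i day 7 replicate 1 (0.113), under quantile normalization (0.0604) and with only the groups compared in the fit (0.14). The same DMSO libraries enter both sets of differences.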

How the results depend on the processing

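Of 72 calls of members, 38 held in every alternative run and 34 were lost in at least 1; of 54 tests not called, 18 gained a call in at least 1. With only the groups compared in the fit, fewer members were called: 2, 1 and 3 for pre-p38i against DMSO on days 3, 5 and 7; 1 and 0 for p38i against DMSO on days 3 and 5; 3 for p38i against pre-p38i on day 3; 5 for DMSO day 7 against day 3; and 2 for the change of pre-p38i. That fit uses fewer libraries, and over all genes it called 904 in place of 2365 for MEF_p38i, 753, 1254 and 2285 in place of 2729, 3387 and 3952 for pre-p38i, 1044, 978 and 2749 in place of 2833, 3514 and 4509 for p38i, and 651 in place of 1081 for the change of pre-p38i. Same-numbered libraries did not deviate together (correlations between −0.0159 and 0.0513 over 13 pairs of groups), so the numbers do not pair them. With a replicate block, 4 members were called for p38i on day 5 and 3 for the change of pre-p38i, and the other counts stayed within 1.5 times.

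Leaving out 1 library at a time gave between 2 and 3 members for MEF_p38i; 5 to 7, 4 to 6 and 5 to 6 for pre-p38i on days 3, 5 and 7; 1 to 2, 2 to 3 and 3 to 4 for p38i; 5 to 7, 5 to 6 and 6 for p38i against pre-p38i; 9 for DMSO day 3 against MEF; and 7 to 9 for DMSO day 7 against day 3. It gave 1 to 3 for the change of p38i, with 1 without DMSO day 3 replicate 1 or DMSO day 7 replicate 2, and 2 to 5 for the change of pre-p38i, with 2 without pre-p38i day 3 replicate 1 or pre-p38i day 7 replicate 2 and 3 without the other replicate of either group, DMSO day 3 replicate 1 or DMSO day 7 replicate 2. For p38i on day 3 the count was 1 without p38i day 3 replicate 1.

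Directions turned only for differences that were not called. Without 1 library at a time, Acta2 in pre-p38i on day 3 lay between −0.15 and 0.022, Cnn1 in p38i on day 3 between −0.71 and 0.29, Myl9 in p38i on day 7 between −0.49 and 0.14, Myl9 in p38i against pre-p38i on day 3 between −0.33 and 0.57, Acta2 in that comparison on day 5 between −0.085 and 0.26, Cnn1 in the change of p38i between −0.29 and 0.71, Myl9 in the change of pre-p38i between −0.63 and 0.026, and Tpm2 there between −0.13 and 0.23. Quantile normalization turned Cnn1 in p38i on day 3 to 0.046, Cnn1 in the change of p38i to −0.046 and Acta2 in p38i against pre-p38i on day 3 to 0.045. It also moved the median of all genes from −0.08 to 0.03 for p38i on day 3, from −0.16 to 0.03 for p38i against pre-p38i on day 3, and from 0.15 to −0.07 for DMSO day 3 against MEF. The share of calls that were higher moved from 66.7% to 50.1% for pre-p38i on day 3, from 24.4% to 48.3% and from 29.6% to 53.1% for p38i on days 3 and 5, from 25.5% to 52.1% and from 34.4% to 53.2% for p38i against pre-p38i, from 59.5% to 46.4% for DMSO day 3 against MEF, and from 66.5% to 52.7% for the change of p38i. The causes were not tested. Values of a few units rounded down, 2 libraries a group and an unknown depth limit what can be said of Acta1, Cnn1 and Des after day 1.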

Other observations

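Of a list of 34 sarcomere genes of striated muscle, 8 passed the filter on low values and the other 26 were not tested. Of the 8, 3 were higher and 1 was lower on day 3 of DMSO than in MEFs (37.5% and 12.5%, against 40.6% and 27.6% of all genes), and 5 were higher and none lower on day 7 than on day 3 (62.5% higher, against 23.4% of all genes). The lower gene on day 3 was Tnnt2, the cardiac troponin T, which was among the 5 higher ones on day 7. Several of the 8 reached the filter largely through groups late in induction. Myl7, for example, was at 2 in both DMSO libraries of day 5 and at 9 and 13 on day 7. A rise among such genes is favoured by the filter, so nothing is read from these shares. Myh1, a fast myosin heavy chain of skeletal muscle, was at 0 in the MEF and MEF_p38i libraries and was listed at 3 and 4, 50 and 31, 79 and 81, and 107 and 101 in the DMSO libraries of days 1, 3, 5 and 7. In p38i it was at 7 and 8, 15 and 14, and 14 and 16 on days 3, 5 and 7, and the log2 difference from DMSO was −2.25 on day 3 and −2.39 on day 5 (limma adjusted p = 5.67e-09 and 2.49e-09). In pre-p38i it was at 72 and 55, 109 and 112, and 110 and 109 on the same days. Myh2, another fast myosin heavy chain, was higher in pre-p38i than in DMSO on each of these days, at 29 and 24 against 15 and 10, 38 and 39 against 18 and 19, and 45 and 42 against 29 and 26 (1.05, 1.02 and 0.64, adjusted p = 7.03e-05, 4.98e-05 and 0.00318).

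Mylpf, the regulatory light chain of fast skeletal muscle, was at 4 in both DMSO libraries of day 5 and at 55 and 49 on day 7. On day 7 it was at 4 in both p38i libraries (log2 difference −3.40, adjusted p = 5.09e-06) and at 80 and 87 in pre-p38i. Most of the mean of Mylpf over all libraries, 12.4, came from the DMSO and pre-p38i libraries of day 7. It reached the mean required for being named through them, so nothing is read from this test. Of the 9 skeletal myoblast markers in the table, only Chrna1 was above 0 during induction, at 4 to 43. Of the 8 sarcomere genes tested, 2 were higher in pre-p38i than in DMSO on days 3 and 5 and 1 on day 7 (25%, 25% and 12.5%, against 13.8%, 14.3% and 15.4% of all genes). In p38i 2 were lower on day 3 and 3 on days 5 and 7 (25%, 37.5% and 37.5%, against 16.2%, 18.7% and 17.6%). These shares depend on the same filter and are likewise not read. Myl4, Tnnt1, Tnnt2 and Tnnc1 did not pass in either arm on any of these days.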
